A study of Mus musculus with 12 samples.

Results

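Cdo1 and 9 genes of glutathione synthesis, thioredoxin recycling and their regulation were followed in macrophages of mouse glioma that had or had not taken up an injected nanoparticle. The 10 genes, Cdo1, Slc7a11, Gclc, Gclm, Gsr, Txnrd1, Prdx1, Srxn1, Nqo1 and Nfe2l2, were picked by symbol from the 54532 genes of the count table, and each symbol matched 1 gene. They were picked with the difference between the sorts already in view. Their differences between sorts are therefore a description without a test, and nothing is read from how many of them passed a threshold.

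All mice carried the genotype labelled Ntv-a_Ink4a/Arf_KO, bore gliomas and received rhodamine-labelled PFCE-NP (perfluoro-crown-ether nanoparticles) intravenously 24 hours before the tumour was taken. Ntv-a names a transgene that places an avian virus receptor under the Nestin promoter of neural progenitors, and Ink4a/Arf a tumour suppressor locus. How the tumours were started and the age of the mice are not given in the sources used here. From each of 6 mice, tumour-associated macrophages (TAMs) positive for CD45 and CD11b and negative for Ly6C were sorted into a rhodamine-positive library (labelled Rhod_Uptaking) and a rhodamine-negative library (labelled Rhod_Negative), which gave 12 libraries of polyadenylated RNA. By their labels, mice 1 to 4 were males, and the other two, mice 5 and 6, females. No mouse without nanoparticles is among the samples, so both sorts come from injected animals.

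Cysteine is the limiting building block of glutathione, the main small thiol of the cell. The antiporter xCT brings in cystine, glutamate-cysteine ligase joins cysteine to glutamate, and cysteine dioxygenase oxidises cysteine irreversibly on the path to taurine and sulfate. Thioredoxin and peroxiredoxins form a parallel peroxide-removing system. The transcription factor NRF2, held down by KEAP1 and released by electrophiles and oxidants, binds antioxidant response elements in the genes of both systems, while ATF4 acts on amino acid response elements when amino acids are short.

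The start regions of the genes were read to show which of these elements stand close to the start site. RefSeq windows of 250 bases before to 50 bases after a start (GRCm38.p6, the patch release of mm10) were found for 7 of the 10 genes, 9 windows in all, and none was found for Cdo1, Gclc or Gsr. The core of the antioxidant response element was searched as TGACNNNGC on both strands (GCNNNGTCA on the other), and 12.4% of all 32851 windows held it. Upstream of a start it was found in 4 members. For Txnrd1 it was found in 1 of 3 windows, at a start inside the gene, which spans chr10:82833951-82897712. The matches are shown here 5′ to 3′ on the gene's strand with 10 flanking bases and the match in capitals.
Prdx1, chr4:116685456-116685484, plus strand: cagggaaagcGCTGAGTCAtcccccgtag
Txnrd1, chr10:82859104-82859132, plus strand: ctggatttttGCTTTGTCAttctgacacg
Gclm, chr3:122245413-122245441, plus strand: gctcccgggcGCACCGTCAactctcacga
Nfe2l2, chr2:75704885-75704913, minus strand: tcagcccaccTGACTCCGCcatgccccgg

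The match in Prdx1, which begins 133 bases before the start, was also the only one among the members to hold the extended form TGACTCAGC (GCTGAGTCA on the other strand), a special case of the core that 0.454% of all windows held. Srxn1 had a core match after its start, and the windows of Slc7a11 and Nqo1 had none. The amino acid response element was searched as TGATGNAA on both strands (TTNCATCA on the other), and 3.97% of all windows held it. Among the members it was found in Slc7a11, where a forward and a reverse match lay 66 and 47 bases before the start. The 250 bases upstream of the RefSeq start of Slc7a11 and of Prdx1 are shown, with matches in capitals. They are the members with more than 1 match or with the extended form. In the GENCODE annotation used for gene lengths Prdx1 begins at chr4:116685544, inside the printed stretch and after the match.
Slc7a11, chr3:50443614-50443863, minus strand: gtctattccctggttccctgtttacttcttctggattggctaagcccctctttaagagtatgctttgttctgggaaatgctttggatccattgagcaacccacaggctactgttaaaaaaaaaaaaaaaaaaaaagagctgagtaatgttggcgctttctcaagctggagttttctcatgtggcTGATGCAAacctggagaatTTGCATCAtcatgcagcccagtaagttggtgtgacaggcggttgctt
Prdx1, chr4:116685349-116685598, plus strand: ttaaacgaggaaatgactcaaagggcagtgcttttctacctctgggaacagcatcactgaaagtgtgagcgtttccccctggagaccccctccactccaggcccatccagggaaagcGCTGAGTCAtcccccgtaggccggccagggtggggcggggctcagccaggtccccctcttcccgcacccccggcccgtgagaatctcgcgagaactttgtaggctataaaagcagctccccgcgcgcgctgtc
These matches are letters in a window and say nothing of binding in these cells.

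The libraries held 13073189 to 17379314 counts. Defining macrophage genes (Ptprc, Itgam, Csf1r, Adgre1, Cd68, Aif1, Mertk and Fcgr1) had at least 2290 counts in every library. Their summed level also differed, with 4505 to 7840 CPM in the 6 rhodamine-negative libraries and 8261 to 9423 CPM in the 6 rhodamine-positive ones. Of these 8 genes 4 rose, among them Cd68 by 0.87 and Adgre1 by 0.81 on the log2 scale, and Ptprc fell by 0.56. Markers of other cells moved with the sorts. CPM were counts scaled to a common library total, after each total was adjusted by TMM (trimmed mean of M values). All 9 dendritic cell markers fell in rhodamine-positive sorts. Their summed level was 468 to 1712 CPM in the 6 rhodamine-negative libraries and 173 to 309 CPM in the 6 rhodamine-positive ones. Of 7 monocyte markers 3 fell (238 to 598 against 46.2 to 117 CPM), and of 3 tested basophil and mast cell markers all fell (5.98 to 413 against 0.187 to 21.2 CPM). Of 8 tested glioma and oligodendrocyte markers 5 fell (102 to 162 against 44.1 to 139 CPM). Of these, Pdgfra fell by 2.11 and Sox10 fell by 1.58 on the log2 scale. Of 5 tested B and plasma cell markers 2 fell, Jchain (5.61 to 40.3 against 0 to 0.437 CPM) and Mzb1 (0.662 to 8.35 against 0 to 0.159 CPM). Of 2 tested markers of T and natural killer cells, Klrd1 fell (37.9 to 82.8 against 1.98 to 9.94 CPM) and Cd4 rose (2.61 to 7.44 against 4.71 to 15.1 CPM). Ncr1 and Klrb1c, 2 other natural killer cell markers, had at most 11 and 28 counts in a library and were not tested. The T cell markers Cd3e, Cd3d, Cd8a and Trac had at most 6, 6, 5 and 11 counts and were not tested either. Of 6 tested border-associated macrophage markers 4 rose, Siglec1, Pf4, Stab1 and Ms4a7. The sum over the list was 442 to 973 against 859 to 1441 CPM, of which Stab1 had 285 to 509 against 599 to 921 CPM. Mrc1 and Cd163 did not pass, at 0.34 and 0.71 on the log2 scale. Lyve1 and Cd209f had at most 23 counts in a library and were not tested. The rhodamine-negative library of mouse 5 stood apart, with the highest dendritic (1712 CPM), monocyte (598 CPM) and basophil (413 CPM) sums of its group and the lowest microglial sum, 4542 CPM where the others had 9015 to 15780 CPM. Values without mouse 5 are given for the members it moves most.

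Cdo1 encodes cysteine dioxygenase, the enzyme that commits cysteine to oxidation. It was higher in the rhodamine-positive sort of every mouse. In rhodamine-negative libraries it ran from 5.09 to 15.7 CPM with a median of 7.52, and in rhodamine-positive libraries from 19.6 to 45.3 CPM with a median of 24.9. The sorts did not overlap, with the lowest rhodamine-positive library above the highest rhodamine-negative one. The means were 9.42 ± 4.86 and 28.6 ± 10.2 CPM (SD, n = 6), and the log2 fold change fitted over the 6 pairs was 1.67 (SE 0.14), or 3.19-fold. Within single mice the difference ran from 1.23 in mouse 1 to 2.04 in mouse 2 on the log2 scale. RNA was measured in bulk, so fewer cells of a type and less RNA per cell cannot be told apart, here and for every gene described. Dendritic, monocyte, plasma cell and glioma markers were lower and macrophage markers higher in the same sorts as given, and their part in this difference was not tested.

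Slc7a11 (mm10 chr3:49892526-50443614, minus strand) encodes xCT, the exchanger that brings in cystine. Its mean was lower in the rhodamine-positive sort. Its levels were 8.84 to 27.3 CPM (median 12.5) in the 6 rhodamine-negative libraries and 5.55 to 14.6 CPM (median 10.4) in the 6 rhodamine-positive ones, and the sorts overlapped. The fitted difference was -0.50 on the log2 scale (SE 0.20). It was lower in 4 of 6 mice, with the largest difference in mouse 5, from 27.3 to 11.8 CPM, and mouse 6, from 16.5 to 8.89 CPM. In mouse 1 the levels were 14.4 and 14.6 CPM and in mouse 4 they were 10.6 and 13.03 CPM. Without mouse 5 the fitted difference was -0.34. Per gene length, Cdo1 stood at 1.58 to 15.1 times Slc7a11 within the rhodamine-negative library of a mouse and at 14.0 to 62.5 times within the rhodamine-positive one. This ratio was higher in the rhodamine-positive sort of all 6 mice. Its size depends on the length used, as the merged exons of Slc7a11 hold 13922 bases and its longest transcript 9223.

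**Figure D1:**
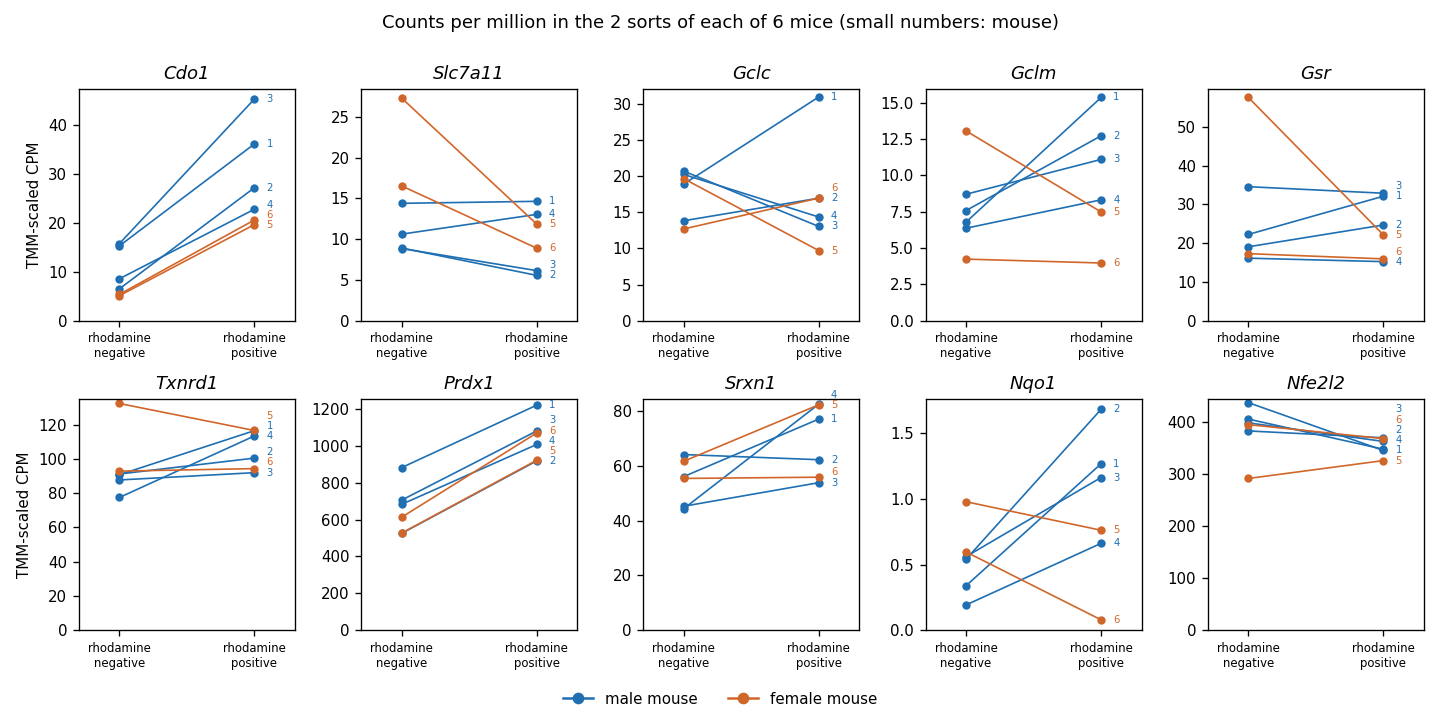
TMM-scaled CPM (vertical axes, each from 0) of the 10 genes in the rhodamine-negative and rhodamine-positive library of each mouse, joined by a line and coloured by labelled sex. All 6 lines of Cdo1 and Prdx1 go up and their sorts do not overlap, while the lines of the other 8 genes cross or the sorts overlap.

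The ligase that makes gamma-glutamylcysteine, the first step of glutathione synthesis, has a catalytic subunit encoded by Gclc and a modifier subunit encoded by Gclm. Neither subunit separated the sorts. Gclc was at 12.7 to 20.7 CPM (median 19.3) in the 6 rhodamine-negative libraries and 9.70 to 31.0 CPM (median 15.7) in the 6 rhodamine-positive ones, with a fitted difference of -0.12 (SE 0.22), or 0.07 without mouse 5. It was higher in 3 mice and lower in 3. Gclm was at 4.24 to 13.1 CPM (median 7.18) and 3.97 to 15.4 CPM (median 9.71), with a fitted difference of 0.31 (SE 0.23), which ran from 0.13 without mouse 1 to 0.54 without mouse 5. Gclm was higher in the rhodamine-positive sort of the 4 male mice, from 6.79 to 15.4 CPM in mouse 1 and from 8.70 to 11.1 CPM in mouse 3, and lower in that of both female mice, from 13.1 to 7.48 CPM in mouse 5 and from 4.24 to 3.97 CPM in mouse 6. The ratio of modifier to catalytic subunit per gene length was 0.188 to 0.398 in the 6 rhodamine-negative libraries and 0.140 to 0.510 in the 6 rhodamine-positive ones, and it was higher in the rhodamine-positive sort of mice 1 to 5.

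Gsr encodes glutathione reductase, which returns oxidised glutathione to its thiol form with NADPH. Its levels were 16.1 to 57.7 CPM (median 20.7) in the 6 rhodamine-negative libraries and 15.2 to 32.9 CPM (median 23.4) in the 6 rhodamine-positive ones, and the sorts overlapped. The value of 57.7 CPM belonged to mouse 5, whose rhodamine-positive library had 22.2 CPM. The fitted difference was -0.12 (SE 0.21), and it was 0.14 without mouse 5, so that the sign rests on that mouse.

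Of the thioredoxin genes, Prdx1 differed and the others overlapped. Prdx1 (mm10 chr4:116685544-116700822, plus strand) encodes a thioredoxin-dependent peroxidase and was the most abundant of the 10 genes. It ran from 525 to 882 CPM (median 648) in rhodamine-negative and from 918 to 1220 CPM (median 1038) in rhodamine-positive libraries, and the sorts did not overlap. The fitted difference was 0.68 (SE 0.08), or 1.60-fold, with single mice between 0.47 and 0.81. Processed copies of Prdx1 exist in the mouse genome and reads may have been shared with them, which makes its absolute level uncertain. Txnrd1 encodes cytosolic thioredoxin reductase, the selenoenzyme that recharges thioredoxin. It was at 77.5 to 132 CPM (median 91.0) and 92.0 to 117 CPM (median 107), with a fitted difference of 0.16 (SE 0.10), and was higher in 5 of 6 mice. Srxn1 encodes sulfiredoxin, which repairs over-oxidised peroxiredoxins such as the product of Prdx1. It was at 44.4 to 64.1 CPM (median 55.8) and 53.9 to 82.6 CPM (median 69.7), with a fitted difference of 0.33 (SE 0.12), and was also higher in 5 of 6 mice. Mouse 4 had the largest Srxn1 difference, from 44.4 to 82.6 CPM, and in mice 2 and 6 the pairs lay within 0.05 on the log2 scale.

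Nfe2l2, the gene of NRF2 itself, differed little. It was at 292 to 437 CPM (median 397) in the 6 rhodamine-negative libraries and 326 to 370 CPM (median 355) in the 6 rhodamine-positive ones, with a fitted difference of -0.12 (SE 0.08). It was lower in 5 of 6 mice and higher in mouse 5, from 292 to 326 CPM. Nqo1 encodes a quinone reductase that is widely used as a readout of NRF2. It was near the limit of detection, with 3 to 15 counts in the 6 rhodamine-negative libraries and 1 to 27 in the 6 rhodamine-positive ones, and did not pass the filter on low counts. A count of 0 would have allowed up to 3 counts, and 2 libraries lay at or below that number, so no fold change is given for Nqo1. Its counts in the 2 sorts were 5 and 19 in mouse 1, 9 and 27 in mouse 2, 8 and 15 in mouse 3, 3 and 9 in mouse 4, 15 and 11 in mouse 5 and 10 and 1 in mouse 6.

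**Figure D2:**
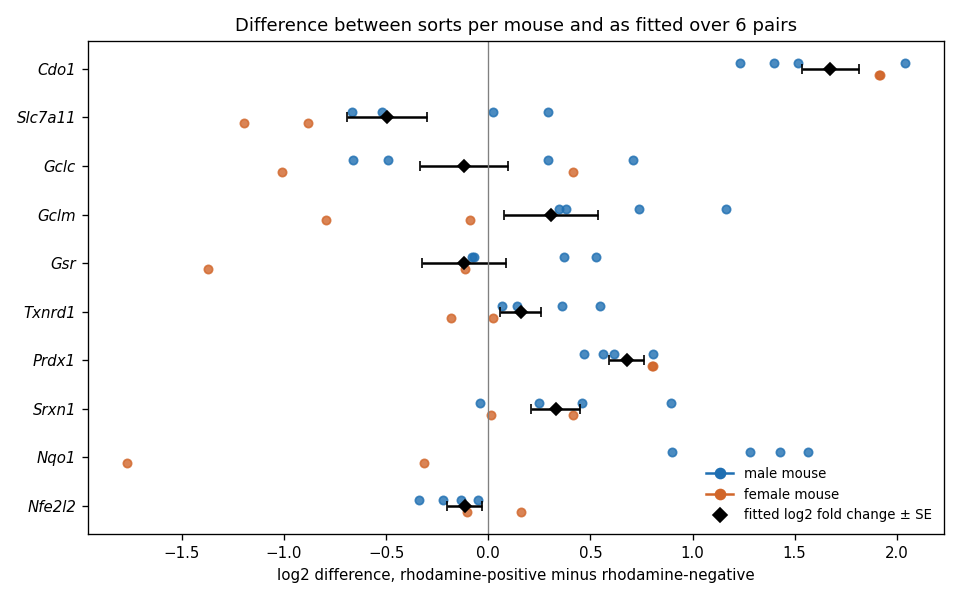
Log2 difference between the rhodamine-positive and rhodamine-negative library of each mouse (circles, coloured by labelled sex) and log2 fold change fitted over the 6 pairs with its standard error (black diamonds, not available for Nqo1). Cdo1 at 1.67 and Prdx1 at 0.68 lie right of 0 in every mouse, and the circles of the other genes lie on both sides of 0.

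Set against the whole table, 9 of the 10 genes passed the filter on low counts. The call rule used for all genes, an adjusted p under 0.05 in edgeR's paired quasi-likelihood fit, counts 2 of the 9 as higher and 0 as lower, which is given as a description because the genes were picked on this difference. Over all 15014 genes tested, 26.2% were past the threshold, 13% higher and 13.2% lower. Sorts that did not overlap were seen for 2 of the 10 genes and for 8.81% of the genes tested. All 6 pairs went the same way for the same 2 genes and for 28.2% of those tested. The median log2 fold change was 0.16 over the 9 genes and -0.02 over all genes tested. When libraries were scaled by their totals only, the median over all genes tested went to -0.18. Then Txnrd1 went to -0.00, Slc7a11 to -0.66, Nfe2l2 to -0.27, Cdo1 to 1.52 and Prdx1 to 0.52.

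Levels were compared between genes per length, as reads per kilobase of merged exons, scaled like CPM (RPKM). In rhodamine-negative libraries the order of means was Prdx1 (215.5 ± 44.1 RPKM, SD, n = 6), Nfe2l2 (101 ± 13.01), Srxn1 (19.3 ± 2.90), Txnrd1 (13.5 ± 2.67), Gsr (10.1 ± 5.84), Cdo1 (5.73 ± 2.96), Gclc (4.69 ± 0.925), Gclm (1.24 ± 0.473), Slc7a11 (1.04 ± 0.504) and Nqo1 (0.345 ± 0.172). The ranges over 6 mice were apart between Prdx1 and Nfe2l2, Nfe2l2 and Srxn1, Gclc and Gclm, and Slc7a11 and Nqo1, and overlapped between the other neighbours. In rhodamine-positive libraries Cdo1 had rank 4, at 17.4 ± 6.18 RPKM, between Srxn1 (24.5 ± 4.69) and Txnrd1 (14.9 ± 1.60), with ranges that overlapped both. The other genes kept their order, and Prdx1 reached 340.5 ± 37.4 RPKM. With the length of the longest transcript in place of merged exons, the ranks of 4 genes in rhodamine-negative and 3 in rhodamine-positive libraries changed, and Txnrd1 stood at 26.3 and 29.1 RPKM. Cdo1 then stood at 17.9 RPKM in rhodamine-positive libraries, at rank 5, below Txnrd1 and Srxn1.

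**Figure D3:**
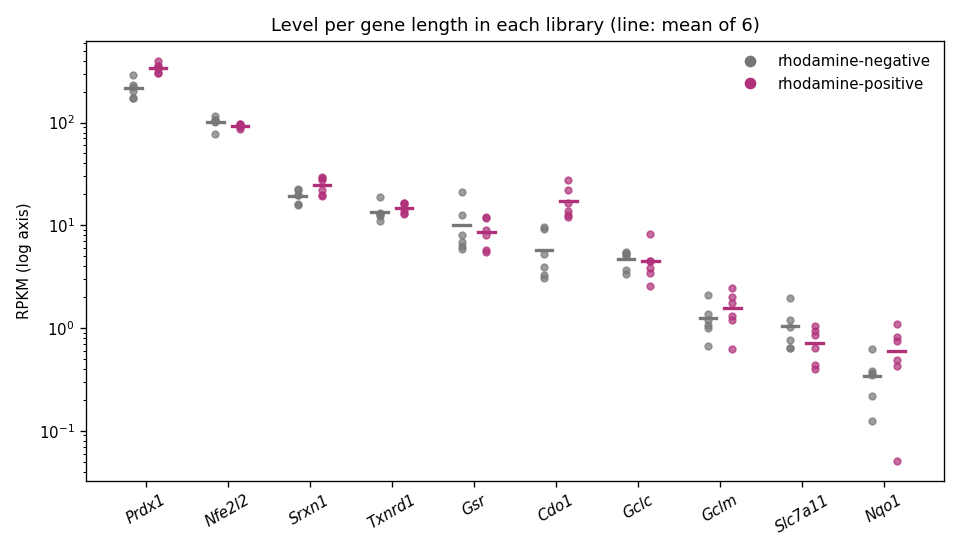
Level per gene length (RPKM, log axis) of the 10 genes in the 6 rhodamine-negative (grey) and 6 rhodamine-positive (magenta) libraries, with a line at the mean of 6 and genes ordered by their rhodamine-negative mean. Prdx1 and Nfe2l2 lie above the 8 other genes in both sorts, and Cdo1 moves from rank 6 to rank 4 (rank 5 with the longest transcript as length).

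The labelled sex of the mice was not used to choose the genes, so comparisons with it were tested over all genes. The difference between sorts was lower in female mice for Gclm, by -1.15 (SE 0.37), Gsr, by -0.96 (SE 0.34), and Slc7a11, by -0.85 (SE 0.33), each female minus male on the log2 scale. None passed (edgeR's quasi-likelihood test of the interaction, adjusted p = 0.562, 0.613 and 0.619). For 2 of the 10 genes, Gclm and Nqo1, all male pairs went one way and both female pairs the other, as for 2.06% of the genes tested. At an unadjusted p under 0.05 stood 3 of the 9 genes and 7.73% of all 15014 genes, and the share past the adjusted threshold was 0% (0 genes with edgeR, 28 with DESeq2). Without mouse 5 the Gsr value was -0.31 and the Gclm value -0.77. For Cdo1 and Prdx1 the interaction was 0.39 (SE 0.28, adjusted p = 0.717) and 0.19 (SE 0.17, adjusted p = 0.759). With only 2 female mice, sex cannot be told apart from other properties of those mice, and dendritic sums were 821 to 1712 CPM in their rhodamine-negative libraries and 468 to 850 CPM in those of males.

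The level of Cdo1 was lower in the female mice of each sort. They had 5.09 and 5.37 CPM in the rhodamine-negative and 19.6 and 20.6 CPM in the rhodamine-positive library, and males had 6.50 to 15.7 and 22.7 to 45.3 CPM, so that within each sort the sexes did not overlap. This held for 1 of the 10 genes and, in the same direction in each sort, for 5.38% of the genes tested. On counts summed per mouse the difference was -0.88 (SE 0.28) and did not pass edgeR's quasi-likelihood test (adjusted p = 0.206), which called 50 genes. It passed in DESeq2 (adjusted p = 0.028), which called 626 genes. It also passed in edgeR's test without the filter on low counts (adjusted p = 0.00057), which called 1141 genes. Slc7a11 was at 0.67 (SE 0.29, adjusted p = 0.345 in edgeR). In edgeR's test with the filter 2 of the 10 genes stood at an unadjusted p under 0.05, and none past the adjusted threshold. Over the 18020 genes tested these shares were 13.9% and 0.277%.

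Other genes of the same pathways were taken from 8 lists of 143 genes, without the 10 described so far, of which 127 passed the filter. In the fit over all genes 45 rose and 14 fell, and 68 did not pass. That is 35.4% higher and 11.0% lower, beside 13% and 13.2% of all genes tested. The lists were chosen with earlier results of these data known, so these shares are a description and not a test of the pathways. The median log2 fold change was 0.17, beside -0.02. With scaling to library size alone the counts were 30 and 22, and over all genes 852 and 3142 in place of 1955 and 1986. Genes outside the naming rule are named where they complete a count or a family, and were chosen after their values were seen. Adjusted p-values are from edgeR's quasi-likelihood test over all genes.

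Around cysteine, 4 of 15 tested genes rose and 2 fell (3 and 4 with library size alone). Ahcy, which hydrolyses S-adenosylhomocysteine in the methionine cycle, rose from 18.0 ± 2.14 to 31.3 ± 4.45 CPM (SD, n = 6; adjusted p = 0.00036). Ethe1, a mitochondrial persulfide dioxygenase, rose by 0.66 (SE 0.11), and the sulfurtransferase gene Tst and the transaminase gene Got2 also rose, by 1.44 and 0.39. Slc1a5, a transporter of neutral amino acids, fell from 62.1 ± 22.6 to 29.5 ± 6.62 CPM (adjusted p = 5.7e-05), and Suox, the sulfite oxidase that acts at the end of the route from cysteine to sulfate, fell by 0.60. Csad, which turns the product of cysteine dioxygenase toward taurine, was at -0.05 (SE 0.15). Slc3a2, the heavy chain that carries xCT to the membrane, was at 0.07 (SE 0.10), and neither passed. Cth and Cbs, the enzymes that make cysteine from homocysteine, did not pass the filter on low counts.

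Among genes of glutathione synthesis, breakdown and use, 5 of 16 rose and 1 fell (3 and 3 with library size alone). Gpx3, a secreted glutathione peroxidase, rose from 112 ± 41.2 to 232 ± 45.3 CPM (2.16-fold, adjusted p = 0.000152). The glutaredoxin gene Glrx rose by 0.49 (SE 0.09), and Glrx3, Gpx4 and Gss, the glutathione synthetase, by 0.31, 0.46 and 0.37. Ggt5, a gamma-glutamyl hydrolase of extracellular glutathione and leukotrienes, fell by 0.98 (SE 0.17). Gpx1, the most abundant gene of the list at 1738 ± 183 and 1613 ± 171 CPM, did not pass at -0.11 and passed as lower, at -0.27, with library size alone. Of 16 tested glutathione S-transferase genes 6 rose and 1 fell (3 and 1 with library size alone). Gstm1, Mgst1 and Gstm5 rose by 0.85, 0.75 and 0.70, of which Mgst1 missed the threshold in the unpaired fit (adjusted p = 0.142), and Hpgds, which makes prostaglandin D2, was at 0.40 (SE 0.16) and did not pass (adjusted p = 0.0935). Some genes within the Gstm family and within the Gstp family are similar copies, so reads may be split between those copies.

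Of 20 thioredoxin, peroxiredoxin, sestrin and methionine sulfoxide reductase genes 8 rose and 4 fell (4 and 4 with library size alone). Txn1, the cytosolic thioredoxin that Txnrd1 reduces, rose from 129 ± 36.9 to 190 ± 40.2 CPM (adjusted p = 0.00132). Txnip, which binds and inhibits thioredoxin, fell from 229 ± 16.9 to 157 ± 27.0 CPM (adjusted p = 0.000954). In the peroxiredoxin family, beside Prdx1 at 0.68, Prdx4 rose by 0.65, Prdx3 by 0.43 and Prdx2 by 0.25, Prdx5 was at 0.09 and did not pass, and Prdx6 fell by 0.47. The sestrin genes Sesn2 and Sesn3 fell by 0.61 and 1.29. In the unpaired fit Txn1 and Sesn2 missed the threshold (adjusted p = 0.0523 and 0.0947).

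**Figure D4:**
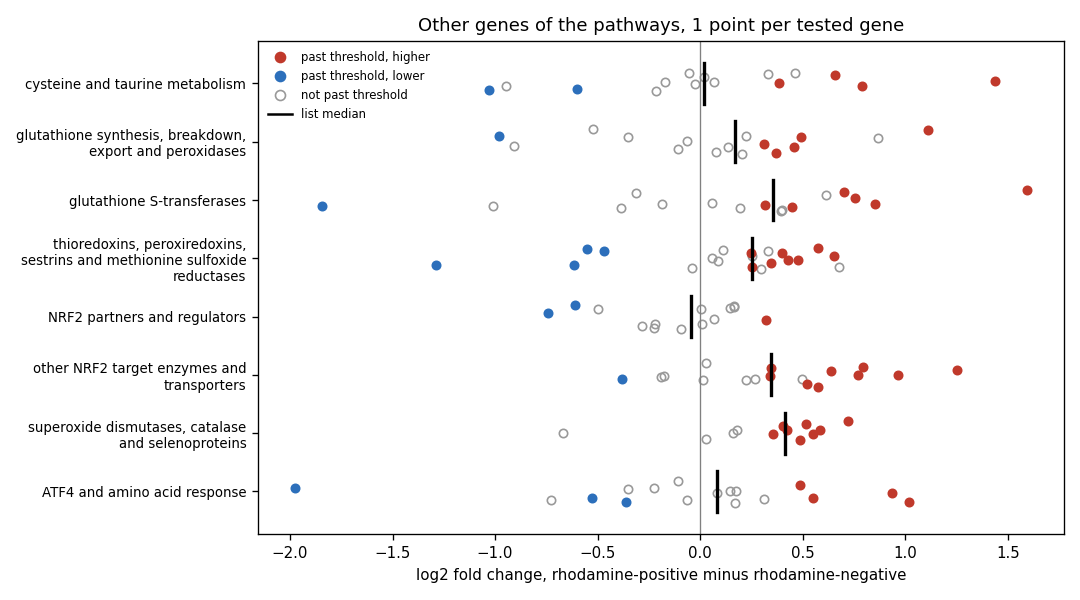
Log2 fold change between sorts (horizontal axis) of each tested gene in the 8 lists, filled where it was past the adjusted threshold of 0.05 (red higher, blue lower) and open where it was not, with a black line at the list median. The medians run from -0.04 for NRF2 partners and regulators to 0.41 for superoxide dismutases, catalase and selenoproteins.

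Of 14 NRF2 partners and regulators 1 rose and 2 fell (0 and 4 with library size alone). The small Maf genes Mafk and Maff, whose proteins pair with NRF2 on DNA, fell by 0.61 (SE 0.10) and 0.74 (SE 0.18). Rbx1, a subunit of the ubiquitin ligase that removes NRF2, rose by 0.32 (SE 0.10, adjusted p = 0.0292) and did not pass without mouse 2, 3, 5 or 6. Sqstm1, which competes for KEAP1, was at 0.07 (SE 0.09), and Keap1 at 0.15 (SE 0.09). Of 17 other NRF2 target enzymes and transporters 9 rose and 1 fell (7 and 1 with library size alone). Hmox1 (heme oxygenase), Slc48a1 (heme transport) and Ftl1 (ferritin light chain), the genes of this list with the smallest p, rose by 1.25 (SE 0.10), 0.79 (SE 0.08) and 0.96 (SE 0.10). These 3 act on heme and iron, and Ftl1 also has near-identical copies. The NADPH-producing enzymes G6pdx and Pgd rose by 0.34 each. Me1 was at 0.01 and did not pass, at low levels of 1.47 ± 0.464 and 1.67 ± 1.06 CPM. Taldo1, another gene of the list, was at 0.03 and did not pass. Osgin1 was the 1 that fell, by 0.38.

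Of 12 genes of superoxide and peroxide removal and selenoproteins 8 rose and none fell (6 and 0 with library size alone). Sod2, the mitochondrial superoxide dismutase, rose by 0.52 (SE 0.08), Selenow by 0.55 (SE 0.08) and Park7 by 0.49 (SE 0.09). Selenop, a secreted selenium carrier, went from 1348 ± 406 to 1973 ± 381 CPM (adjusted p = 0.0124), and missed the threshold in the unpaired fit (adjusted p = 0.0764). Of 17 tested genes of the ATF4 and amino acid response 4 rose and 3 fell (4 and 5 with library size alone). Those that rose were Phgdh, Psat1 and Shmt2 of serine and glycine synthesis, by 1.02, 0.94 and 0.55, and the seryl-tRNA synthetase gene Sars, by 0.49. Atf4 itself fell by 0.36 (SE 0.11), with Ddit4 and Slc38a2 lower by 1.98 and 0.53 on the log2 scale, and Atf3 was at -0.35 (SE 0.16) and did not pass. The border-associated macrophage and dendritic sums given at the start moved in the same sorts as these lists, and their part was not tested.

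The genes whose pattern over the 12 libraries came closest to that of Cdo1 were Lrrc27, Gpx3, Cd63-ps, Spc25 and Cd63. Closeness was the root mean square difference in log2 CPM after each gene was centred on its own mean, among 8669 candidates. It was 0.40, 0.41, 0.49, 0.50 and 0.51 on the log2 scale, where the median candidate was at 1.01 and a flat gene would be at 1.00. Closeness was taken over both sorts, so it includes the difference between sorts, which was in view when Cdo1 was picked. All of the genes nearest to Cdo1 were, like Cdo1, higher in the rhodamine-positive sort. Their closeness is therefore a description, and a link to Cdo1 beyond that shared difference was not tested. Gpx3 is the glutathione peroxidase described with the glutathione genes. Cd63 encodes a lysosomal tetraspanin, and Cd63-ps is its pseudogene, which may share its reads. Nearest to Slc7a11 were Adamtsl4, Sirpb1c and Serpinb9, at 0.31, 0.32 and 0.32, where the median candidate was at 0.67 and a flat gene at 0.60.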

How the data were processed

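Polyadenylated RNA was sequenced on an Illumina instrument, per the labels. The authors deposited raw read counts per gene for 12 libraries, as 1 table and as 1 file per library with the same values, and a table of log2 normalized values for 10605 genes, which equalled log2 CPM plus a constant per library. Per the submitters' processing notes, the tools were HISAT2 2.1.0, featureCounts 1.4.4, bcl2fastq 2.17, limma, edgeR and cutadapt, and the build was mm10. The role and settings of each tool and the strand setting are not given in the sources used here.

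Tests were run on the deposited counts. Genes were kept by filterByExpr with the sorts as groups, at least 10 counts and a total of at least 15, which kept 15014. Libraries were scaled with TMM (trimmed mean of M values). The model had a term per mouse and used edgeR's quasi-likelihood test (edgeR 4.0.16, R 4.3.3), with p adjusted over all genes by Benjamini-Hochberg and a threshold of 0.05. Each standard error (SE) was taken as the size of the fitted difference over the root of its F statistic. Log2 CPM used a prior count of 2. The sex comparison of levels used counts summed per mouse, which left 18020 genes. Gene lengths came from GENCODE release 21 for mouse (mm10). The procedure was also run on simulated counts that held no differences between mice. Those counts cannot show how the fits behave with the differences between mice in these data.

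The mouse was the block because the labels give both sorts of a pair the same animal number. Deviations from the group means correlated within a pair at r = 0.226, 0.207, 0.289, 0.0775, 0.302 and 0.450 for mice 1 to 6 across genes, which are not independent replicates. For mouse 4 a library of another mouse correlated better (0.187).

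Named genes were the 10 members, the 3 genes with the smallest p and the most abundant gene of each pathway list, and the 5 and 3 genes nearest to Cdo1 and Slc7a11. Members and lists were chosen with earlier results of these data known. Alternatives were DESeq2 1.42.0, an unblocked fit, limma 3.58.1 (with voom, or on the log2 table as deposited), other filters and scalings, a threshold of 0.01, male mice alone, each mouse left out, and the longest transcript as gene length.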

Additional observations from a re-analysis of the deposited data

Results flagged for a closer look

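3 values of the members stood far from the other 5 of their group, and chance alone flags about 1 in 20 groups by this measure. Gclc was at 31.0 CPM in the rhodamine-positive library of mouse 1, where the others had 9.70 to 17.0 CPM. Txnrd1 was at 132 CPM in the rhodamine-negative library of mouse 5, where the others had 77.5 to 92.9 CPM. Nfe2l2 was at 292 CPM in that same library, where the others had 383 to 437 CPM. For 2 genes every male pair went one way and both female pairs the other. Gclm had a female minus male difference of -1.15, which did not pass edgeR's test of the interaction (adjusted p = 0.562). For Nqo1, with 1 to 27 counts, the mean pair differences of the sexes lay -2.34 apart on the log2 scale. That difference was not tested, and it is no measure of size, since it rests on libraries with 1 and 3 counts. The same opposite pattern was seen in 2.06% of all genes tested.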

How the results depend on the processing

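Over 16 fits the log2 fold change was 1.52 to 1.77 for Cdo1, 0.52 to 0.72 for Prdx1, -0.66 to -0.22 for Slc7a11 and 0.13 to 0.66 for Gclm, whereas Gclc, Gsr and Txnrd1 changed sign between fits. The genes were picked on this difference, so these ranges are a description. Members past the threshold as lower, 0 as reported, were 2 with library size alone and 1 without a filter, and 0 to 1 when a mouse was left out, the 1 being Slc7a11 without mouse 4. Srxn1 was past it as higher with DESeq2, without a filter and without mouse 2.

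Over all genes, 1955 were higher and 1986 lower. Without the replicate block 1270 were higher, and no member gained or lost its call. The higher count was 1240 with limma on the deposited log2 table. Counts were 852 and 3142 with library size alone, 1005 and 1222 with male mice alone, and 908 and 1033 at a threshold of 0.01. Leaving out a mouse gave 1257 (without mouse 3) to 1780 higher and 1421 to 1820 lower genes, 2 to 3 members higher, and 36 to 46 pathway genes higher and 10 to 14 lower. Pathway genes past it as lower, 14 as reported, were 22 with library size alone and 9 at 0.01. Interaction calls, 0 as reported, were 28 with DESeq2 and 119 without a filter, and 0 to 4 when a mouse was left out (4 without mouse 6). Sex differences in level, 50 genes as reported, were 87 with library size alone, 626 with DESeq2, 1141 without a filter, and 9 (without mouse 4) to 168 (without mouse 6) when a mouse was left out, with 14, 20 and 12 without mouse 1, 2 and 3. The interaction and sex fits with a mouse left out were chosen after seeing the data, and leaving out mouse 5 or 6 leaves 1 female, assumed to vary like the males. Of 607 refits of the 38 other named genes, 15 lost and 15 gained a call and none that was called changed sign. The cause of these changes was not tested. Depth limits Nqo1, which could be tested only in some fits.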
